A study of Mus musculus with 8 samples.

Results

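Proliferation and DNA replication genes were examined in dermal fibroblasts of mice fed a high fat diet (HFD), against mice fed a normal one (ND). The 40 genes were chosen by name, with earlier results of these data known. They comprised 19 for DNA replication and the step from G1 into S phase and 21 for mitosis and the G2 phase before it. Of the 40, 39 had at least 1 of 71 probe sets that names no other gene, among 17097 genes on the array. For Ccnb1, which encodes a mitotic cyclin, only the promoter was used, and its expression was not analysed here. The HFD group had 4 arrays (HFD 1 to 4) and the ND group 3 (ND 1 to 3), each array being taken as 1 female mouse put on its diet at 2 months of age for 6 months. One more ND array (ND 4) carries a quality control exclusion in the labels and entered only an alternative fit. No strain, genotype or diet composition is given in the sources used here, and ND is the label of the control diet. The cells were freed from dermis without its underlying layer by collagenase, sorted for Pdgfra and CD34 and against CD45, CD117, CD24, CD31 and EpCam, and 10000 of them per sample gave RNA that was amplified over 20 cycles.

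A cell that divides first licenses its replication origins by loading the Mcm helicase with the help of Cdc6 and Cdt1, then copies its DNA with Pcna as the sliding clamp of the polymerases, and then enters mitosis under cyclin-dependent kinase 1. Entry into S phase is driven by E2F transcription factors, and the mitotic genes are switched on later, through B-Myb and Foxm1 at promoters with a cell cycle homology region (CHR). In resting cells the DREAM complex, built around the pocket proteins and E2f4, represses both groups. Fibroblasts of adult dermis are known as largely resting cells that divide again after wounding.

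The promoters of the replication and mitosis genes differed in motifs that the choice of genes did not use. RefSeq promoter windows (GRCm38.p6, from 250 bases before to 50 after the annotated start) were at hand for 32 of the 40 genes, 16 in each group. Motifs were sought on either strand, with TTTCCCGC or TTTGGCGC taken for the E2F motif. It was found in 8 of 16 replication genes and 0 of 16 mitosis genes, against 1.56% of 32851 promoter windows of all RefSeq genes. Other forms of the E2F motif were not searched, so these counts hold for those letters only. TTTCGCGC is such a form, and its letters occur in the window of the mitosis gene Cdk1. The CHR motif (TTTGAA) was found in 1 replication gene and 11 mitosis genes, against 17.9% of all windows. The CCAAT box (CCAAT, bound by NF-Y) was found in 10 replication genes and 14 mitosis genes, against 37.4% of all windows, and each of the 11 mitosis genes with a CHR also had it. These matches describe letters in the windows and do not show that a factor binds there.

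The promoters printed here are those of the 2 genes that passed the test between diets (Atad5 and Rfc4), of a helicase gene with E2F matches (Mcm3) and of the mitotic kinase gene with CHR matches (Cdk1). They lie at chr11:80089150-80089449 (plus strand), chr16:23127681-23127980 (minus), chr1:20820263-20820562 (minus) and chr10:69352863-69353162 (minus). Each is read 5′ to 3′ on the gene's strand. Capitals mark the motifs as searched, which do not overlap one another here.
Atad5: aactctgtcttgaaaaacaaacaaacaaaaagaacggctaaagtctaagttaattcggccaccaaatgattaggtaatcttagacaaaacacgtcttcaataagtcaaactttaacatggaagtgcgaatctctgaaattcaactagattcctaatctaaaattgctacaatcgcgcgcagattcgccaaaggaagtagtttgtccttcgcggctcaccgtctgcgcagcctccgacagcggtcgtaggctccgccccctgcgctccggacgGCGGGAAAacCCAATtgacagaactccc
Rfc4: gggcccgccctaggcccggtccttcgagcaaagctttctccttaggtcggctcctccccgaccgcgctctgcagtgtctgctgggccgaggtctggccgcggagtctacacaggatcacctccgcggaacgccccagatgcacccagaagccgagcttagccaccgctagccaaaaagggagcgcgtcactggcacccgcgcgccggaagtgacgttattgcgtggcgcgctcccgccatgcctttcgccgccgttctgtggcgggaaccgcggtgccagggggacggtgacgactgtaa
Mcm3: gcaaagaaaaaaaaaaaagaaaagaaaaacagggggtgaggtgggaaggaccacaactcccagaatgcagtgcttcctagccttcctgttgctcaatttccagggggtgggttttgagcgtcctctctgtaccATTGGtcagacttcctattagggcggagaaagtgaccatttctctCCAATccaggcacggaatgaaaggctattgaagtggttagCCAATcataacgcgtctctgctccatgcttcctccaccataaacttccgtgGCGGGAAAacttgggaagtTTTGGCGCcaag
Cdk1: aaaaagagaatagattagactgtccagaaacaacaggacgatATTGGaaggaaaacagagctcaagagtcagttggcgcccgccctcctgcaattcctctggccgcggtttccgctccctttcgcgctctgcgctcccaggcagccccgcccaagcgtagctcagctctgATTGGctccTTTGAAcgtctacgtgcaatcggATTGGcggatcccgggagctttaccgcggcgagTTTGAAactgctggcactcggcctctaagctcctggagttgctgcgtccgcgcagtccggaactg
Counted from the annotated start, the E2F match of Atad5 begins at base 23 on the minus strand and its CCAAT box at base 33. Mcm3 has E2F matches at bases 20 and 39 and CCAAT boxes at -117, -72 and -32. Cdk1 has CHR matches at -71 and -15 and CCAAT boxes at -208, -80 and -48. In the Rfc4 window none of the motifs, as searched, were found.

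**Figure D1:**
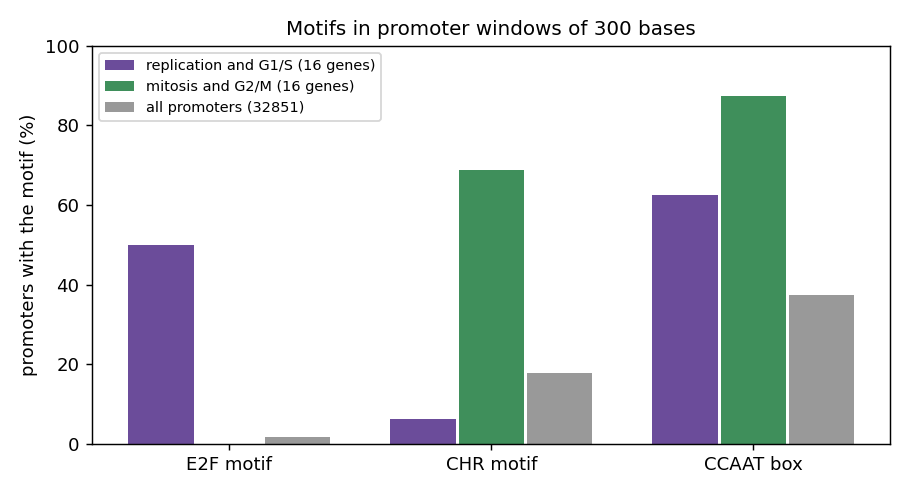
Percent of 16 replication genes and 16 mitosis genes with the E2F motif, the CHR motif or the CCAAT box, beside the percent of all 32851 promoter windows. For E2F only TTTCCCGC and TTTGGCGC were searched. A gene is counted where any of its windows holds the motif, whereas the background is counted by window. E2F matches stand at 50% of replication genes and CHR matches at 68.8% of mitosis genes.

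The table holds log2 expression values without detection calls, so a floor was taken from genes of odorant, vomeronasal and taste receptors, few of which are known from fibroblasts. The 95th percentile of their 86 probe sets lay between 5.93 and 6.14 log2 in the 7 arrays. Of the 39 genes, 24 (61.5%) were above it in all 7 arrays, 13 were at or below it in all 7 and 2 were mixed, while 59.3% of all genes were above it. Brightness also depends on how well the probes of a gene bind, so these levels give no order of RNA amounts between genes. In bulk RNA, fewer dividing cells and less RNA per cell cannot be told apart.

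With the brightest probe set of each gene, 15 of 19 replication genes were above the floor in every array. With the dimmest it was 8, and above the 99th percentile of the receptors 10. Pcna had 10.99, 11.06, 11.15 and 11.18 log2 in HFD 1 to 4, against 10.91, 10.94 and 10.67 log2 in ND 1 to 3. The subunit genes of the Mcm helicase, Mcm2, Mcm3, Mcm4, Mcm5 and Mcm7, were above the floor in all 7 arrays, and Mcm6 in none. Gins2, part of the same replicative helicase, Tyms, which makes thymidylate, the ribonucleotide reductase genes Rrm1 and Rrm2, E2f1, Cdt1, the cyclin gene Ccne1 and the clamp loader genes Rfc3 and Rfc4 were also above it in all 7. Cdc6, Ccne2 and Atad5 were below it in all 7, with means over HFD of 4.34, 4.13 and 5.24 log2 and over ND of 4.26, 4.34 and 4.71 log2.

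Of the mitosis genes, 9 of 20 were above the floor in all 7 arrays (6 with the dimmest probe set), 9 were at or below it in all 7, and Top2a and Bub1b were mixed. No test compares this share with that of the replication genes. Mki67, the gene of the proliferation antigen Ki-67, had 5.64, 5.41, 5.70 and 5.88 log2 in HFD 1 to 4, against 5.76, 5.54 and 5.90 log2 in ND 1 to 3. All of these values were under the floor, and the diets overlapped. The spindle genes Kif11, Tpx2 and Nusap1, the kinetochore motor gene Cenpe, the checkpoint kinase gene Bub1, Aurkb and Birc5 of the chromosomal passenger complex, and the cyclin gene Ccnb2 were likewise at or below the floor in all 7 arrays. Above it in all 7 were Cdk1, Ccna2, Aurka, Plk1, Cdc20, which activates the anaphase-promoting complex, Cenpa, the centromere histone, Kif20a and Prc1 of the central spindle, and Foxm1. The dimmest probe sets of Ccna2, Cenpa and Foxm1, with means of 5.31, 5.37 and 4.08 log2, were under it. Top2a, which untangles DNA strands, had 6.15, 6.12, 6.17 and 6.07 log2 in HFD 1 to 4, against 6.01, 6.19 and 6.23 log2 in ND 1 to 3, at the floor itself. These are values of its brightest probe set, and its dimmer ones had means of 5.33 and 5.21 log2, under the floor. Cdk1 had 6.28, 6.55, 6.55 and 6.62 log2 in HFD 1 to 4, against 6.43, 6.28 and 6.55 log2 in ND 1 to 3, and the diets overlapped.

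**Figure D2:**
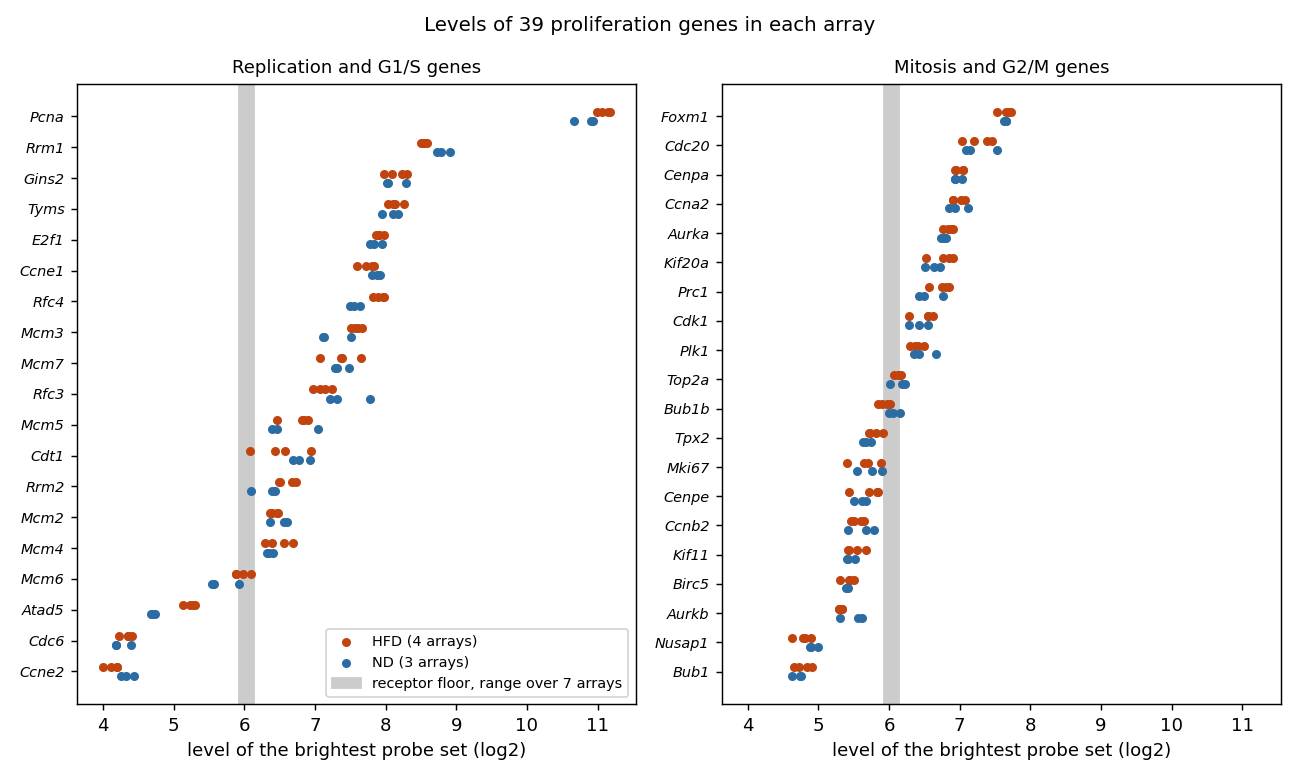
Level of the brightest probe set of each gene (log2, horizontal axis), for 19 replication genes (left) and 20 mitosis genes (right), with HFD arrays above ND arrays in each row and the range of the receptor floor over 7 arrays shaded. 15 replication genes and 9 mitosis genes exceed the floor of the same array in all 7, although single values of Cdt1 and Rrm2 fall in the shaded range, and genes are sorted by brightness, which is no order of RNA amounts.

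Between the diets, 2 of the 39 genes passed the threshold (limma, Benjamini-Hochberg adjusted p under 0.05 over all genes), both higher in HFD, which is 5.13% against 5.35% of all 17097 genes. In all, 2.62% of genes were called higher and 2.73% lower. The share among these genes is therefore near that of the whole array. Of the replication genes 2 of 19 were called, and of the mitosis genes 0 of 20. At an unadjusted p under 0.05 there were 11 of 39 genes (28.2%) against 22.1% of all genes, 9 in replication and 2 in mitosis. The ranges of the diets stayed apart, without overlap, in 6 of 39 genes (15.4%) against 17.9% of all genes, and all 6 were replication genes, 4 higher and 2 lower in HFD. The median difference, HFD minus ND, was 0.06 log2 over replication genes and 0.01 log2 over mitosis genes, beside 0.02 log2 over all genes. Whether replication and mitosis genes differ from each other was not tested.

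Atad5 showed the largest rise among the 39 genes. Its protein joins small clamp loader subunits in a complex that takes Pcna off DNA. It had 5.14, 5.31, 5.24 and 5.28 log2 in HFD 1 to 4, against 4.74, 4.68 and 4.70 log2 in ND 1 to 3. All HFD arrays were above all ND arrays, and ND 4 lay between them at 5.02 log2. The difference was 0.54 log2 (SE 0.05, limma adjusted p = 0.00471), or 1.45-fold with a 95% confidence interval of 1.34 to 1.57. Only 1 probe set names Atad5, and it was under the receptor floor in every array.

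Rfc4, a small subunit of the clamp loaders, had 7.89, 7.96, 7.98 and 7.82 log2 in HFD 1 to 4, against 7.64, 7.50 and 7.55 log2 in ND 1 to 3. The groups did not overlap, and ND 4, at 7.60 log2, was among the ND values. The difference was 0.35 log2 (SE 0.08, limma adjusted p = 0.0445), or 1.27-fold with a 95% interval of 1.12 to 1.45. Its dimmer probe set, at 4.83, 4.84, 4.54 and 4.83 log2 in HFD 1 to 4 and 4.75, 4.67 and 4.90 log2 in ND 1 to 3, differed by -0.01 log2. Leaving out any 1 of the 7 arrays ended the call of Rfc4, with limma adjusted p between 0.054 and 0.154, while Atad5 passed in each of those fits (adjusted p of 0.00752 to 0.0342). With ND 4 included neither passed, at 0.46 log2 for Atad5 (adjusted p = 0.113) and 0.34 log2 for Rfc4 (adjusted p = 0.15).

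Other parts of the clamp and its loaders gave mixed values. Pcna differed by 0.26 log2 (SE 0.09, limma adjusted p = 0.112), with no overlap of the diets in the 7 arrays. ND 4, at 11.02 log2, lay within the HFD range. Rfc3 differed by -0.33 log2 (SE 0.13, adjusted p = 0.177) and its dimmer probe set by -0.10 log2. Rfc5, another small subunit, differed by -0.31 log2 (adjusted p = 0.116), the large subunit gene Rfc1 by 0.26 log2 (adjusted p = 0.134) and Rfc2 by 0.12 log2 (adjusted p = 0.571), with its other probe sets at 0.44 and 0.37 log2.

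Of the Mcm genes, Gins2, Cdc6 and Cdt1, none passed with all 7 arrays, and Mcm3 and Mcm6 passed without ND 1 (limma adjusted p = 0.0351 and 0.0355). With ND 4 included these 2 genes did not pass (limma adjusted p = 0.277 and 0.539), and Mcm6 in ND 4, at 6.15 log2, was above every HFD array. Mcm3 had 7.51, 7.57, 7.61 and 7.67 log2 in HFD 1 to 4, against 7.51, 7.12 and 7.13 log2 in ND 1 to 3, so that ND 1 touched the lowest HFD array. The difference was 0.34 log2 (SE 0.11, limma adjusted p = 0.0984), and its dimmer probe set differed by 0.02 log2. Mcm6 differed by 0.29 log2 (SE 0.10, adjusted p = 0.116), Mcm4 by 0.13, Mcm5 by 0.12, Mcm7 by 0.01 and Mcm2 by -0.08 log2. Mcm2 had 6.37, 6.48, 6.46 and 6.40 log2 in HFD 1 to 4, against 6.36, 6.56 and 6.61 log2 in ND 1 to 3, all within the range of ND. Gins2 differed by 0.04 log2 and Cdc6 by 0.08 log2. Cdt1 differed by -0.29 log2 with a wide 95% interval of -0.66 to 0.08.

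The genes of deoxynucleotide supply showed how far a result can rest on 1 probe set. The large reductase subunit gene Rrm1 had 8.58, 8.53, 8.54 and 8.50 log2 in HFD 1 to 4, against 8.79, 8.73 and 8.91 log2 in ND 1 to 3. All HFD arrays were below all ND arrays, with a difference of -0.27 log2 (SE 0.08, limma adjusted p = 0.0841). The other Rrm1 probe set went the other way, at 7.43, 7.43, 7.40 and 7.47 log2 in HFD 1 to 4 against 7.26, 7.24 and 7.29 log2 in ND 1 to 3, a difference of 0.17 log2 (adjusted p = 0.229). For the small subunit gene Rrm2 the brighter probe set differed by 0.29 log2 (adjusted p = 0.128) and the other by -0.18 log2 (adjusted p = 0.27). Tyms differed by 0.06 log2, and its 4 dimmer probe sets by -0.08 to 0.14 log2.

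Of the regulators of S phase entry, the cyclin gene Ccne2 had 4.20, 4.20, 4.00 and 4.11 log2 in HFD 1 to 4, against 4.33, 4.25 and 4.44 log2 in ND 1 to 3. The groups did not overlap, but every value was well under the floor, and ND 4, at 4.07 log2, lay within the HFD range. The difference of -0.21 log2 (SE 0.06) had a limma adjusted p of 0.0638. Ccne1 differed by -0.13 log2 and E2f1 by 0.06 log2, with adjusted p of 0.449 and 0.741.

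No mitosis gene passed, and all 20 differences lay between -0.18 and 0.18 log2. Every one of the 20 intervals (95%) stayed within 0.5 log2 of no change, as did 81.4% of the intervals of all genes, and the widest bound was 0.41 log2, for Prc1. For Mki67 the difference was -0.08 log2 (SE 0.11), which is 0.949-fold with an interval of 0.796 to 1.13. For Top2a it was -0.02 log2 (0.989-fold, interval 0.882 to 1.11), and for Cdk1 0.08 log2 (1.06-fold, interval 0.905 to 1.23). A threshold missed does not show that the diets are alike. For the 9 genes at or below the receptor floor in all 7 arrays, Mki67 among them, the intervals describe the probe signal and set no bound on a change in RNA.

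The smallest p-values among mitosis genes belonged to Aurkb and Nusap1. Aurkb had 5.29, 5.33, 5.29 and 5.33 log2 in HFD 1 to 4, against 5.56, 5.30 and 5.62 log2 in ND 1 to 3, where ND 2 was level with HFD. It differed by -0.18 log2 (SE 0.08, limma adjusted p = 0.186), and its other probe set by 0.03 log2. Nusap1, which bundles spindle microtubules, had 4.63, 4.90, 4.78 and 4.81 log2 in HFD 1 to 4, against 4.90, 4.99 and 4.88 log2 in ND 1 to 3, a difference of -0.14 log2 (adjusted p = 0.219). Both genes overlapped between the diets and were under the floor. The checkpoint kinase gene Bub1b had 5.85, 5.97, 6.01 and 5.90 log2 in HFD 1 to 4, against 6.15, 6.00 and 6.05 log2 in ND 1 to 3, a difference of -0.13 log2.

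On the positive side were Prc1 and Tpx2. Prc1 had 6.85, 6.81, 6.75 and 6.56 log2 in HFD 1 to 4, against 6.43, 6.50 and 6.76 log2 in ND 1 to 3, a difference of 0.18 log2 (limma adjusted p = 0.355). Its other probe set differed by -0.05 log2, and with the 3′ minus 5′ difference of control probe sets as a covariate the difference was 0.45 log2 (adjusted p = 0.999). Tpx2, which activates Aurka on the spindle, had 5.82, 5.73, 5.72 and 5.92 log2 in HFD 1 to 4, against 5.75, 5.68 and 5.63 log2 in ND 1 to 3, a difference of 0.11 log2 (adjusted p = 0.396). The remaining 12 mitosis genes differed by -0.08 to 0.14 log2, from Plk1 to Kif20a.

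**Figure D3:**
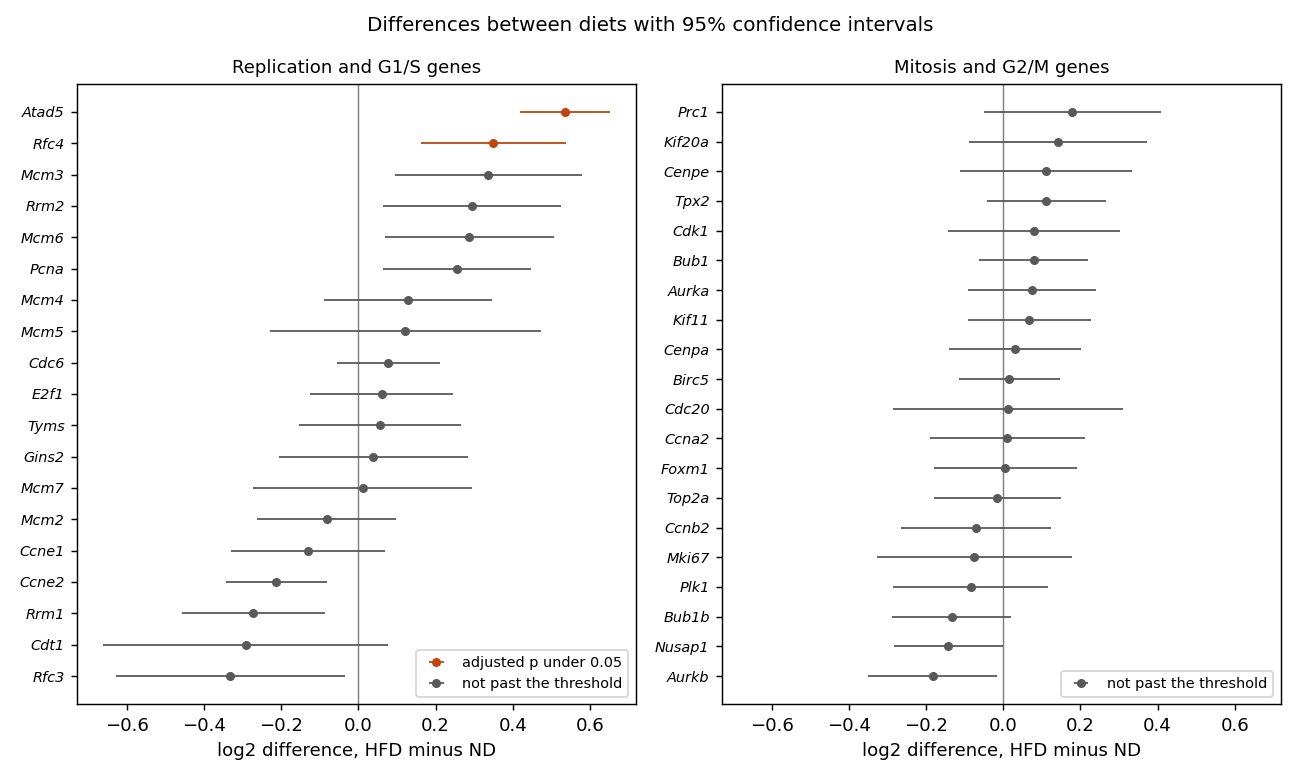
Difference of each gene, HFD minus ND (log2, horizontal axis), with 95% confidence intervals from limma, for 19 replication genes (left) and 20 mitosis genes (right). Atad5 (0.54) and Rfc4 (0.35) are past the threshold, and the mitosis genes lie within 0.18 log2 of 0.

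**Figure D4:**
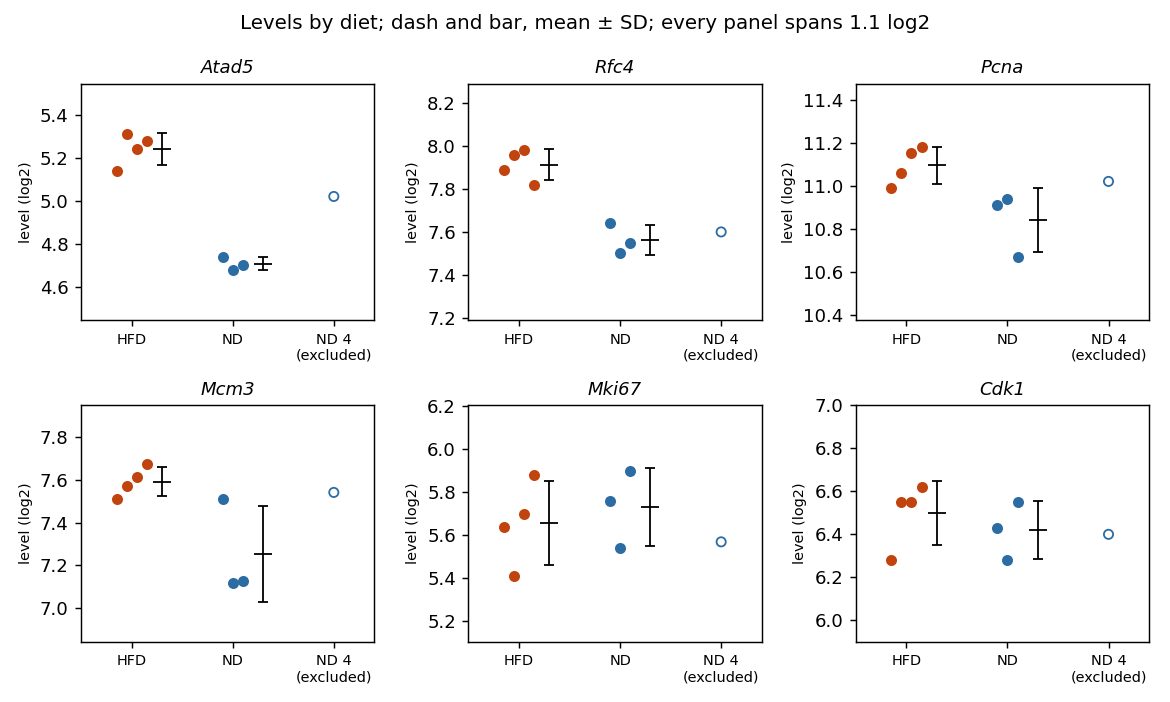
Levels (log2) of Atad5, Rfc4, Pcna, Mcm3, Mki67 and Cdk1 in 4 HFD arrays, 3 ND arrays and the excluded ND 4 (open circle), with mean ± SD beside each group and the same span in every panel. HFD and ND 1 to 3 are apart for Atad5, Rfc4 and Pcna and overlap for Mki67 and Cdk1, and ND 4 lies within the HFD range for Pcna.

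Within each diet the median spread between mice in these genes was near that of all genes. The median SD between arrays of 1 diet was 0.12 log2 for replication genes and 0.10 log2 for mitosis genes, against 0.11 log2 over all genes. The median deviation of the mitosis genes from their own mean over 7 arrays was -0.061, 0.027, 0.016 and 0.064 log2 in HFD 1 to 4, against 0.002, -0.069 and 0.003 log2 in ND 1 to 3. The diets overlapped in this measure. For the replication genes it was -0.019, 0.056, 0.019 and 0.057 log2 in HFD 1 to 4, against -0.023, -0.051 and -0.099 log2 in ND 1 to 3. All HFD arrays were above all ND arrays here, though HFD 1 and ND 1 were close, and ND 3 was lowest. This separation was not tested.

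Probe sets of the same gene often disagreed. Of 24 genes with more than 1 probe set, 12 had probe sets of opposite sign, 5 of 12 replication genes and 7 of 12 mitosis genes. Tested 1 by 1, 2 of the 71 probe sets passed the threshold (limma, adjusted over 28898 probe sets), those of Atad5 (adjusted p = 0.007) and Rfc4 (adjusted p = 0.048), against 4.75% of all probe sets. The 4 probe sets of Foxm1, the transcription factor of the mitotic genes, ran from 0.005 to 0.17 log2, and the 3 of Top2a from -0.02 to 0.004 log2.

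**Figure D5:**
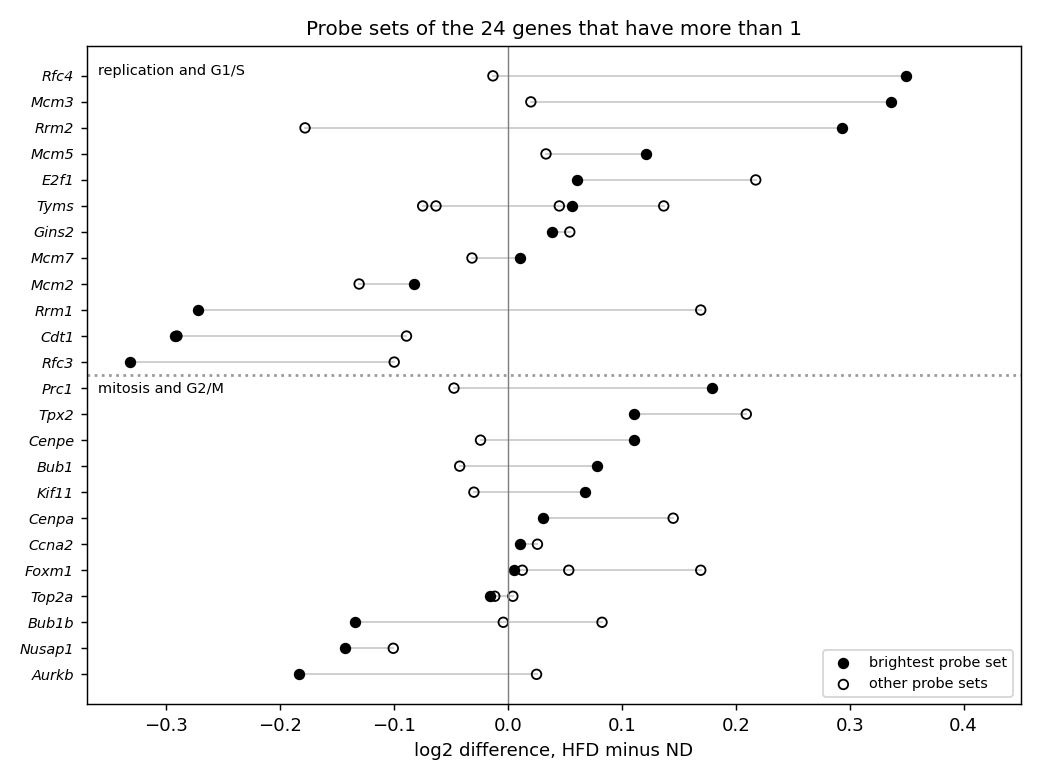
Difference of every probe set (log2, HFD minus ND, horizontal axis) for the 24 genes that have more than 1, with the brightest probe set filled and the others open. The probe sets of Rrm1 (-0.27 and 0.17) and Rrm2 (0.29 and -0.18) fall on opposite sides of 0.

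Other genes of the same pathways moved in both directions. Of 44 measured among 48 further replication genes, 3 rose and 2 fell (11.4% against 5.35% of all genes), with a median of 0.04 log2. The polymerase delta subunit gene Pold2 fell in HFD, with 8.59, 8.79, 8.62 and 8.49 log2 in HFD 1 to 4 against 9.20, 9.26 and 9.12 log2 in ND 1 to 3 (difference -0.57 log2, limma adjusted p = 0.0224). The origin recognition gene Orc1 fell by 0.50 log2 (adjusted p = 0.0443). The fork protection gene Timeless rose by 0.70 log2 (adjusted p = 0.033), though its dimmer probe set differed by -0.14 log2, and the maintenance methyltransferase gene Dnmt1 rose by 0.41 log2 (adjusted p = 0.0451). Pole4, a polymerase epsilon subunit gene named here after its values were seen, differed by 0.42 log2 (adjusted p = 0.0453), with its other probe set at 0.16 log2. Its call was lost without any 1 of the 7 arrays (adjusted p of 0.051 to 0.169), and its value in ND 4, 8.76 log2, was above 3 of the 4 HFD arrays.

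Of 48 measured among 52 further mitosis genes, 1 fell and 0 rose by limma (2.08% against 5.35% of all genes), with 6 at an unadjusted p under 0.05 (12.5% against 22.1% of all genes) and a median of 0.02 log2. The gene that fell was Mad2l1, of the spindle checkpoint, with 6.74, 6.55, 6.63 and 6.81 log2 in HFD 1 to 4 against 7.13, 7.05 and 7.13 log2 in ND 1 to 3 (difference -0.42 log2, limma adjusted p = 0.0302). Of 17 measured genes of the pocket proteins, E2F factors and DREAM, 1 passed (5.88% against 5.35% of all genes), with a median of -0.07 log2. Rbbp4, a histone-binding subunit of DREAM and of several chromatin complexes, rose, with 9.17, 9.32, 9.05 and 9.08 log2 in HFD 1 to 4 against 8.62, 8.71 and 8.39 log2 in ND 1 to 3 (difference 0.58 log2, adjusted p = 0.0251). Each of Pold2, Orc1, Timeless, Dnmt1, Mad2l1 and Rbbp4 lost its call without ND 3 (adjusted p of 0.068 to 0.176), without HFD 3 (0.0636 to 0.107) and without HFD 4 (0.07 to 0.122). Without HFD 2 the same held for all but Pold2 (0.0509 to 0.0954), without ND 2 for Orc1, Timeless, Dnmt1 and Mad2l1 (0.0504 to 0.106), without ND 1 for Dnmt1 (0.0847) and Mad2l1 (0.0539), and without HFD 1 for Dnmt1 (0.0634). With ND 4 included none of these genes passed (limma adjusted p of 0.128 to 0.222). The ND 4 value lay within the HFD range for Pold2 (8.78), Timeless (7.93) and Dnmt1 (7.36), and outside it for Orc1, Mad2l1 and Rbbp4.

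Measures of the arrays were compared between the diets, and keratinocyte signal overlapped while a measure of RNA quality did not. Markers of keratinocytes, which divide in the basal epidermis, had positive differences in all 17 measured of 19, none past the threshold (limma, 4 at an unadjusted p under 0.05), and their summed linear signal ran from 2027 to 7129 in HFD and from 1839 to 2944 in ND. The mean of the markers was 6.339, 7.596, 7.004 and 7.026 log2 in HFD 1 to 4. It was 6.668, 6.298 and 6.461 log2 in ND 1 to 3, so HFD 1 lay within the ND range. ND 4, at 6.999 log2, was above ND 1 to 3. Of the 17, 11 lay above the receptor floor in their mean. With their mean as a covariate, Atad5 differed by 0.46 log2 (limma adjusted p = 0.0295) and Rfc4 by 0.31 log2 (adjusted p = 0.218). RNA quality was read from the Actb and Gapdh controls, whose 3′ minus 5′ difference was -0.44 to -0.375 log2 in HFD and -0.335 to -0.18 log2 in ND. With it as a covariate Atad5 differed by 0.50 log2 and Rfc4 by 0.39 log2. Some other differences were smaller than without it, at 0.036 log2 for Pcna and -0.12 for Rrm1 and for Ccne2. Smaller too were Rbbp4 at 0.28, Timeless at 0.43 and Orc1 at -0.31 log2. Others were larger, among them Pold2 at -0.69, Nusap1 at -0.27 and Cdk1 at 0.22 log2. In that fit 0 of 17097 genes passed (limma, 604 at an unadjusted p under 0.05, with 4 of the 39 genes among them). As the 3′ minus 5′ difference did not overlap between the diets, that fit cannot tell its part from that of diet. The part of either measure in the differences was not tested.

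The other marker lists checked the sort. All 12 measured fibroblast markers were above the receptor floor in their mean, as were 8 of 16 immune markers, 4 of 10 endothelial, 4 of 7 pericyte and smooth muscle and 3 of 7 Schwann cell and melanocyte markers. Pdgfra, by which the cells were sorted, had 6.02 log2 in HFD 3, 5.97 in ND 1 and 5.79 in ND 3. These values lay under the floor of their arrays (6.14, 6.03 and 5.97 log2), and those of the other arrays above it. A signal under this floor therefore does not show that a gene is silent. The immune adaptor gene Tyrobp rose by 0.32 log2 (limma adjusted p = 0.0352) and Lum, a fibroblast proteoglycan gene, fell by 0.34 log2 (adjusted p = 0.0358), and no other marker of these lists passed. Both, named after their values were seen, lost the call without ND 1, ND 2, ND 3, HFD 3 or HFD 4 (adjusted p of 0.0577 to 0.129), and Lum also without HFD 2 (0.0758). With ND 4 included neither of them passed (limma adjusted p = 0.15 for each). The summed immune signal was 2296 to 2734 in HFD and 2372 to 2506 in ND. Summed pericyte and smooth muscle signal was 1032 to 1194 in HFD and 791.5 to 1041 in ND, endothelial signal 680.0 to 968.8 in HFD and 651.5 to 768.0 in ND, and Schwann cell and melanocyte signal 465.1 to 506.0 in HFD and 487.7 to 491.3 in ND. Their part in the results was not tested. Precision is limited by having 4 and 3 arrays.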

How the data were processed

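RNA of sorted dermal fibroblasts was measured on 8 arrays. The deposited values are log2 expression per probe set (45141 probe sets, 3.56 to 13.5), made by the authors with RMA and affy per the submitters' processing notes, with versions not given in the sources used here. Their quartiles agree within 0.04 log2, so a change in total RNA would not show. Gene names came from the platform annotation, updated by Entrez identifier through GRCm38.p6, and each gene was represented by its brightest single-symbol probe set over the 7 arrays compared.

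HFD 1 to 4 and ND 1 to 3 were compared in limma 3.58.1 (R 4.3.3, lmFit, eBayes with trend, 10.3 total degrees of freedom) over 17097 genes, with Benjamini-Hochberg adjustment at 0.05. The p-values set each difference against the spread between arrays of the same diet, an estimate that limma draws partly from all genes. Genes given with values per array were those past the threshold, the 5 with the smallest p in each group, Mki67, Top2a, Cdk1, Pcna and Mcm2, dimmer probe sets where signs disagreed, and up to 4 genes per further list. Members and lists were chosen with earlier results of these data known. Arrays were not paired by specimen number (correlations of deviations of -0.18, -0.29 and -0.05). With so few arrays these values cannot exclude a shared block. The fit was tested on simulated data. Alternatives were ND 4, each array left out, a replicate block, other filters, scalings and variance models, the mean of probe sets and 2 covariates. Figures were drawn with matplotlib 3.10.9.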

Additional observations from a re-analysis of the deposited data

How the results depend on the processing

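The count of 2 called genes was 2 with quantile normalization, median centring and robust eBayes, 3 without the trend, 5 at an adjusted p of 0.10, and 1 with the mean of a gene's probe sets or with the keratinocyte covariate. Without the dimmer genes it was 1 (Rfc4) of only 15 tested, Atad5 not among them. It was 0 with ND 4 included (6 of 17097 genes, smallest limma adjusted p of the 39 genes 0.113) and 0 with the 3′ minus 5′ covariate. That covariate did not overlap between the diets, so its part cannot be told from that of diet. The specimen number as a replicate block gave 0 (1 gene in all), where HFD 4 has no partner and adds nothing. Leaving out 1 array gave 1 to 3 genes, and 1 to 3 of the 71 probe sets, which had 2 called in the comparison and 0 with ND 4 or the replicate block. Over all genes, 914 calls became 485 without ND 2, 11 without ND 3, 210 without HFD 2, 6 without HFD 3, 9 without HFD 4, 17 with the keratinocyte covariate, 400 with the mean of probe sets and 1387 of 8548 genes without the dimmer genes. Atad5 kept its call in 13 of 16 alternatives (0.46 to 0.57 log2) and Rfc4 in 5 of 17 (0.17 to 0.39 log2), neither changing sign. Mcm3 and Mcm6 passed without ND 1 (adjusted p = 0.0351 and 0.0355), Aurkb without ND 2 (0.0447) and Rrm1 without the trend (0.0421). The replication median was 0.043 to 0.077 log2 with 1 array left out and -0.0036 with the 3′ minus 5′ covariate, and the mitosis median moved by less than the spread between arrays. Differences of Mki67, Top2a, Cdk1 and Aurkb changed sign, none of them called in the comparison itself. Mki67 ran from -0.17 to 0.0075 log2 with 1 array left out and was 0.19 with the 3′ minus 5′ covariate, which gave 0.0058 for Aurkb and 0.086 for Top2a. Top2a ran from -0.083 to 0.028 with 1 array left out, and was 0.01 with ND 4, 0.0033 with the replicate block and 0.018 with the keratinocyte covariate, which gave -0.042 for Cdk1. The causes of these shifts were not tested. Above the median of the receptors lay 37 genes, above their 99th percentile 17, and with the dimmest probe set of each gene 14, against 24.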

Other observations

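Among the pocket protein, E2F and DREAM genes, 12 of 17 had a negative difference (70.6%, against 43.8% of all genes), and 5 of 17 (29.4%, against 17.9% of all genes) did not overlap between the diets. Apart from Rbbp4, which rose, these 5 were picked out after their values were seen and did not pass the threshold. E2f4, the repressor E2F of resting cells, had 7.39, 7.21, 7.17 and 7.26 log2 in HFD 1 to 4, against 7.55, 7.52 and 7.49 log2 in ND 1 to 3 (difference -0.26 log2, limma adjusted p = 0.0958). Rbl2, its pocket protein partner, differed by -0.19 log2 (adjusted p = 0.23), with another probe set at 0.10 log2. Dyrk1a, the kinase that promotes assembly of DREAM, differed by -0.44 log2 (adjusted p = 0.0668), with other probe sets at -0.24 and 0.32 log2, and the repressor gene E2f6 differed by -0.43 log2 (adjusted p = 0.0659). In ND 4, E2f4 (7.23), Rbl2 (7.95), E2f6 (7.32) and Dyrk1a (10.55) lay below ND 1 to 3.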
